A study of Mus musculus with 12 samples.

Results

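Regions of the mouse genome at which all 8 deposited lists of H3K9 methylation peaks hold a peak were examined. Peaks on autosomes with a score of at least 50 were pooled over the lists, overlapping peaks were merged, and a merged region was kept when at least 1 peak of each list overlapped it. Of 86662 merged regions, 1601 met this rule, or 1.85%. The lists come from chromatin immunoprecipitation and sequencing (ChIP-seq) of histone H3 dimethylated or trimethylated at lysine 9 (H3K9me2 and H3K9me3) in brown adipose tissue (BAT) and subcutaneous white adipose tissue (WAT). Wild-type C57BL/6J mice had been given a high-fat diet (HFD) or a standard chow diet (SCD) for 12 weeks from 6 weeks of age. There was 1 library for each diet, tissue and mark, so no value has a replicate and no difference between diets was tested. Neither the number of mice behind a library nor whether both marks were taken from the same chromatin is given in the sources used here. The study's methods pair the name H3K9me2 with an antibody described as trimethyl-specific and H3K9me3 with one described as dimethyl-specific, and the names of the labels are kept.

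H3K9 methylation is laid down by enzymes such as G9a, SUV39H1 and SETDB1 and is read by HP1 proteins, which compact chromatin into heterochromatin. It is known for silencing transposable elements, satellite repeats, imprinted alleles and genes of other cell lineages. CpG islands are stretches rich in C, G and the dinucleotide CG. They sit at many promoters, and in most tissues those of active genes carry little of this methylation.

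Peak scores are taken as -log10 of the p-value multiplied by 10, since the lowest value is 50 or 50.01 (a p-value of 1e-05) in 6 lists and 30 (a p-value of 0.001) in the SCD lists of WAT. It is not scaled between libraries, so the rank of a region is also given as a percentile, that of its highest peak among all autosomal peaks of that list with a score of at least 50. The lists hold between 7531 and 50303 such peaks. The SCD list of WAT H3K9me3 is the one with 7531, and the next shortest, the HFD list of WAT H3K9me2, has 20790. Without the SCD list of WAT H3K9me3 the other 7 lists shared 6260 regions, and without any other single list between 1603 and 1930 regions were found.

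The sequences that recurred most among the 1601 regions are printed first, since the regions fall into groups that differ in sequence. All are from the reference genome (NCBIM37, the assembly named mm9). The largest group shares a repeated sequence, and the 3 copies with the highest rank in all lists are shown with the 36 bases that most members share in capitals. The first lies 1202780 bp from the start site of Aga and the second inside Sult2a3, 34273 bp from its start site. These 36 bases occur in 307 of the 357 regions of this family.
Family 1, chr8:53388929-53389048, plus strand: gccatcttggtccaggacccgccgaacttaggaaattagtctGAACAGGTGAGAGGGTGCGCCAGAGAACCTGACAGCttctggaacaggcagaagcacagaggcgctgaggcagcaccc
Family 1, chr7:14671684-14671803, plus strand: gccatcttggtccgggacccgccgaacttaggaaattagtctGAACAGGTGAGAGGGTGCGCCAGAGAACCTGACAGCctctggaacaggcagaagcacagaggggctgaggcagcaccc
Family 1, chr4:52098666-52098785, minus strand: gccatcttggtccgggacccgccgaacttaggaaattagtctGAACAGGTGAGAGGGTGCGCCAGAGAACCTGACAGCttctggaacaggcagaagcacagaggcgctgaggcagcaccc
The next families by size carry other sequences, each with its most shared 36 bases in capitals.
Family 2, chr2:36154936-36155055, plus strand: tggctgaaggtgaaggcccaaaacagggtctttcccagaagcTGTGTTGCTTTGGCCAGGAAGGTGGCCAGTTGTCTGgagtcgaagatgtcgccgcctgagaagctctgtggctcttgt
Family 3, chr16:86952436-86952555, plus strand: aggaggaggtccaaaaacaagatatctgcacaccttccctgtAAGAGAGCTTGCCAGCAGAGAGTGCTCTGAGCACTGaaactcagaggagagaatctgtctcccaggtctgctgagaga
A second group consists of CpG-rich regions of chromosome 12 with at least 50% of their 36-base words found elsewhere in the genome. In these, as in the remaining sequences, the plus strand at the centre of the stretch covered by all 8 lists is shown with every CG in capitals.
Nearest start site Gm5784, chr12:19294505-19294704: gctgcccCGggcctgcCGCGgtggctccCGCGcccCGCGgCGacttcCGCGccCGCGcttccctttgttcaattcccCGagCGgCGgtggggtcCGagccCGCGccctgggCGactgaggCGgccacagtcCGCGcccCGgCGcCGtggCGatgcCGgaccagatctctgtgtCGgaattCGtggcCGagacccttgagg
Nearest start site Gm17391, chr12:23255364-23255563: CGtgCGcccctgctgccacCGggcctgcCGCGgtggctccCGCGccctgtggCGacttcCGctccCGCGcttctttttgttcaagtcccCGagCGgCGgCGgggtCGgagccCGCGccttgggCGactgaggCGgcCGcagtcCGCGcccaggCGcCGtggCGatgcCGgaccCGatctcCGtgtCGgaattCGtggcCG
Another group is repeated within itself, away from genes, with few CG.
Nearest start site Zranb2, chr3:157104658-157104857: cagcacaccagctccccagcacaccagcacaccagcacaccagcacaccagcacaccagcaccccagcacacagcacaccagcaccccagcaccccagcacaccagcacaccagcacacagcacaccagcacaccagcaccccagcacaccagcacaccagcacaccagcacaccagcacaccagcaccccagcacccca
Nearest start site C1d, chr11:17366080-17366279: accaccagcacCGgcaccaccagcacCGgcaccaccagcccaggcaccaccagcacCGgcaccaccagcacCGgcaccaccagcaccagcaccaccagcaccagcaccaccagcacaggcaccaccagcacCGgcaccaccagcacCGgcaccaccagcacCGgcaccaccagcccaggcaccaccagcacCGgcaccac
Nearest start site Nkx6-1, chr5:102064072-102064271: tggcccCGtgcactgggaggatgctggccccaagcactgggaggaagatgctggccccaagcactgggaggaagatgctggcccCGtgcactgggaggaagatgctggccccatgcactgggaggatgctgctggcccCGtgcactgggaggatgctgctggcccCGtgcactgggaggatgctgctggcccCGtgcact
The last group consists of CpG island promoters with no word found elsewhere in the genome, here those of Trhde, a thyrotropin-releasing hormone degrading enzyme, and Dlgap1, a scaffold protein of synapses.
Trhde, chr10:114238434-114238633: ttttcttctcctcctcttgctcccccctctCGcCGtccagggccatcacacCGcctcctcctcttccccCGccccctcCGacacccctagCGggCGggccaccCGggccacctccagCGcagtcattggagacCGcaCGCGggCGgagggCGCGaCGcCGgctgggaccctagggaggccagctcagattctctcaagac
Dlgap1, chr17:70318758-70318957: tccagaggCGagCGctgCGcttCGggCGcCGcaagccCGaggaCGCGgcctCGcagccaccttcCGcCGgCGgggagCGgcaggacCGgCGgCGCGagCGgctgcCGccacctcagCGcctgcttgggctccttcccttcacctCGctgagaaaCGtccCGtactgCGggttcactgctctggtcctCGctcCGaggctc

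Each of the 1601 regions was placed in 1 of 4 classes by position and sequence. There were 652 promoter regions (40.7%, exact binomial 95% interval 38.3 to 43.2%), which come within 3 kb of a start site of a protein-coding gene. Another 560 regions (35.0%, 32.6 to 37.4%) lay away from promoters and had at least 50% of their 36-base words copied elsewhere in the genome. A further 132 (8.24%, 6.94 to 9.70%) held a CpG island away from promoters and were not copied. The remaining 257 (16.1%, 14.3 to 17.9%) fit none of these, and 173 of them (67.3%) were repeated within themselves, meaning that at least 10% of their 36-base words occur more than once inside the region. All intervals cover counting error only, and regions are not replicates.

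The classes differed in base composition. Promoter regions had a median GC content of 64.4% and a CpG ratio (observed over expected) of 0.72, and 547 of them (83.9%) held a CpG island. The copied regions had a median GC content of 63.1% and a CpG ratio of 0.57, and 263 (47.0%) held an island. The remaining 257 regions had a GC content of 58.1% but a CpG ratio of only 0.15. These differences are shown in the plot of CpG ratio against GC content.

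**Figure D1:**
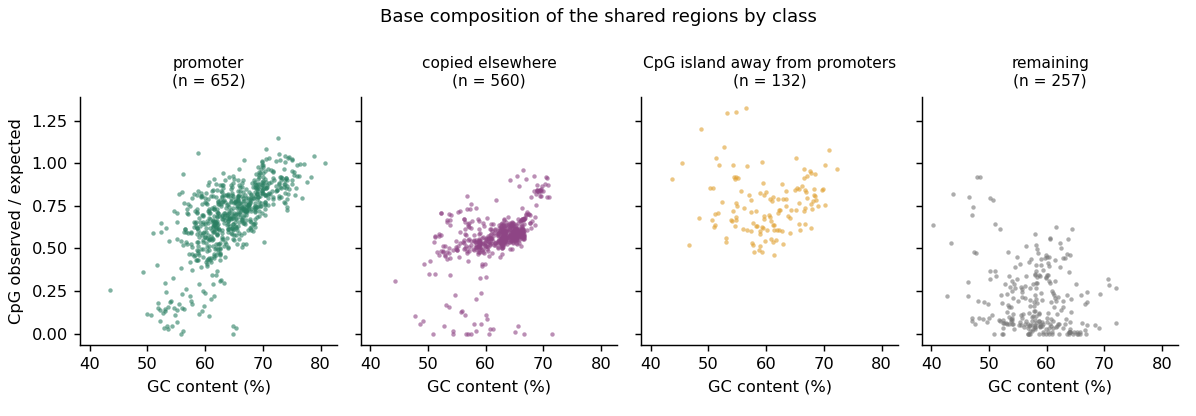
CpG ratio (observed over expected) against GC content (%) in the central 1 kb of each of the 1601 regions, 1 panel per class and 1 point per region. Most promoter regions (n = 652) lie high on both axes, the copied regions (n = 560) form a dense group at a CpG ratio near the median of 0.57, and the remaining regions (n = 257) have a median CpG ratio of 0.15.

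As a group, the 1601 regions had a median GC content of 62.8%, against 52.3% in the 85061 regions of fewer lists. Regions in 7 lists had 62.9%, so the GC content is not particular to the shared regions. A CpG island was present in 942 of them (58.8%, 56.4 to 61.3%), against 15598 of the others (18.3%, 18.1 to 18.6%). The share within 3 kb of a start site was 40.7%, against 24.3% (24.0 to 24.6%). This last difference does not single out the shared regions, because regions in 7 lists had a larger share at promoters, 51.1% (49.7 to 52.4%), and regions in 6 lists 55.9% (54.5 to 57.3%). Islands were likewise most frequent in regions of 7 lists, at 71.9% (70.7 to 73.1%). The share copied elsewhere was 37.4% in regions of all 8 lists (35.0 to 39.8%), 35.4% in regions of 7 lists and 40.6% in regions of a single list. In contrast, repetition within the region increased with every step in the number of lists, reaching 42.0% (39.6 to 44.5%) in all 8, against 34.2% in 7 and 4.38% in a single list. The median width also increased with every step, from 686 bp in a single list to 1527 bp in all 8. Repetition was not compared at equal width. When copied regions were left out, 61.2% (58.1 to 64.2%) of the 1003 others were at promoters, against 35.7% of such regions in fewer lists and 76.9% in 7 lists. No chance test was run on any of these shares.

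**Figure D2:**
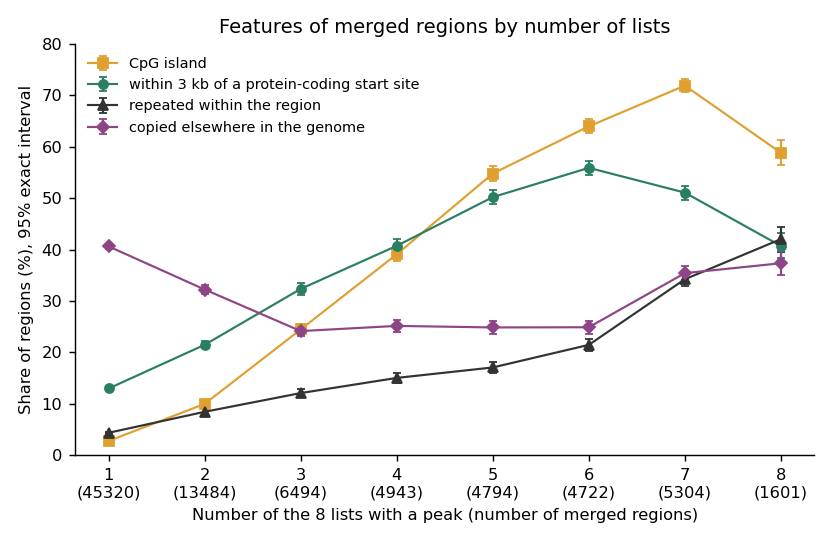
Share of merged regions (%, with exact 95% intervals) that hold a CpG island, lie within 3 kb of a protein-coding start site, are repeated within themselves, or are copied elsewhere in the genome, by the number of lists with a peak (the number of regions is in parentheses). Island and promoter shares are highest at 7 and 6 lists (71.9% and 55.9%), and repetition within the region is highest at 8 lists (42.0%).

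Shared regions were wide, which the merging and the rule favour. Their median width was 1527 bp (quartiles 1208 and 1949 bp), from 717 to 17719 bp, against 833 bp in regions of fewer lists. The bases covered in all 8 lists at once had a median of 799 bp. In 1383 regions (86.4%) each list held exactly 1 peak. In 38 regions (2.37%) no base was covered by all 8 lists, so the peaks only touched through one another, and 28 of these 38 were promoter regions. Width matters for the comparison above. Among regions wider than 1130 bp, the upper quartile of all merged regions, 41.7% (39.1 to 44.5%) of the 1313 shared regions were at promoters, against 43.3% (42.6 to 44.0%) of regions in fewer lists, while an island was present in 62.8% (60.1 to 65.4%), against 38.1% (37.4 to 38.7%). In the same quartile 40.8% (38.1 to 43.5%) of the shared regions were copied, against 24.8% (24.2 to 25.4%). The next quartile, above 840 and up to 1130 bp, held 268 shared regions and differed. There 22.4% (17.5 to 27.9%) were copied, against 28.8% of regions in fewer lists. At promoters were 37.3% (31.5 to 43.4%), against 28.2%, and 42.9% held an island, against 22.6%.

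The regions were chosen by these scores, which are given as a description. The median score of the 1601 regions was 159 in the HFD list and 200 in the SCD list of BAT H3K9me2, and 518 with HFD and 434 with SCD for BAT H3K9me3. In WAT it was 152 with HFD and 274 with SCD for H3K9me2, and 169 with HFD and 76.2 with SCD for H3K9me3. The regions ranked high in 7 lists, with median percentiles between 82.9 and 93.9. In the SCD list of WAT H3K9me3 the median percentile was 60.7. That list gave the lowest of the 8 scores in 1038 regions (64.8%). At or above the 50th percentile of every list were 656 regions, and 53 were at or above the 90th. Of these 53, 25 were copied regions away from promoters (47.2%, 33.3 to 61.4%), against 35.0% of all 1601. Promoter regions were 15 (28.3%, 16.8 to 42.3%), against 40.7%. Repeated within themselves were 29 (54.7%, 40.4 to 68.4%), against 42.0%. Each interval holds the share over all 1601 regions, so no difference is read from these counts.

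**Figure D3:**
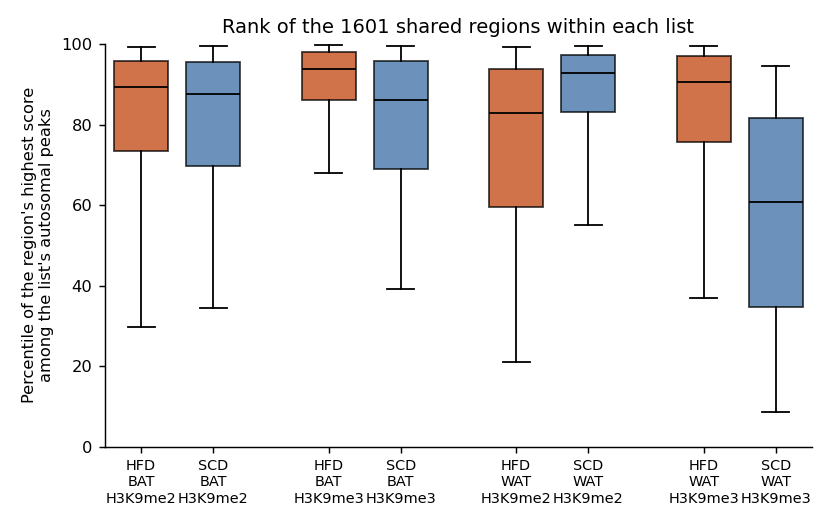
Percentile of the highest peak score of each of the 1601 regions among the autosomal peaks of the same list, with HFD (red) left of SCD (blue) for each tissue and mark. Boxes are quartiles with the median, and whiskers are the 5th and 95th percentiles over regions. Medians lie between 82.9 and 93.9 in 7 lists and at 60.7 in the SCD list of WAT H3K9me3.

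Just inside the threshold, the lowest of the 8 scores was under 55 in 290 regions. Just outside, 4658 of the 5304 regions in 7 lists lacked only the SCD list of WAT H3K9me3, and 1099 of these had a weaker peak there, with scores of up to 49.99. The ranks of the regions varied together between lists to a different degree. Across the 1601 regions Spearman's rho of the scores was 0.67 between the HFD lists of H3K9me2 and H3K9me3 in BAT, and 0.59 between the SCD list of BAT H3K9me3 and the SCD list of WAT H3K9me2. It was 0.06 between the SCD list of BAT H3K9me3 and the SCD list of WAT H3K9me3. All these pairs are over the same regions, each chosen for a peak in all lists, and are given as a description.

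The region with the highest rank over all lists lay on Muc19, which encodes a gel-forming mucin (chr15:91736628-91741113). It covers exons and a start site, and 78% of its 36-base words recur inside it. In BAT it scored 2702 with HFD and 1988 with SCD for H3K9me2 and 3100, a value that recurs among the highest scores, under both diets for H3K9me3. In WAT it scored 2388 with HFD and 3100 with SCD for H3K9me2, and 2755 with HFD and 545 with SCD for H3K9me3. The score was thus high in every list, and its lowest percentile over the lists was 99.2. Because 3100 recurs in several regions, equal scores of 3100 are not read as equal signal.

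Next came a region of 10802 bp on Flg (chr3:93086403-93097204), the gene of the epidermal protein filaggrin, whose coding sequence is a long array of repeats. Here 90% of the words recurred inside the region, most often at a distance of 750 bp. In BAT it scored 1639 with HFD and 2614 with SCD for H3K9me2 and 3100 under both diets for H3K9me3. In WAT it scored 1666 with HFD and 2257 with SCD for H3K9me2 and 1570 with HFD and 357 with SCD for H3K9me3. It also held the longest stretch covered by all lists, 7886 bp. The next longest, 6089 and 5417 bp, lay in copies of family 1 at 312578 bp from 1700008P02Rik and at 167286 bp from Nup35. Ahnak2, another gene with a repeated coding sequence, had a region of 9393 bp with words recurring at 519 bp and a lowest percentile of 94.5.

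After these came an array 91373 bp from Zranb2 and outside any gene (chr3:157103589-157105751), part of which is shown above. Its words recurred most often at 550 bp, and its CpG ratio was 0. In BAT its scores were 1740.5 with HFD and 2070 with SCD for H3K9me2, and 3100 under both diets for H3K9me3. In WAT they were 1901 with HFD and 3100 with SCD for H3K9me2, and 1413 with HFD and 311 with SCD for H3K9me3. Of the 10 regions with the highest lowest percentile, 4 were such arrays outside genes and not of the copied class. The other 3 of these arrays lay at 838438 bp from Mms22l, at 201583 bp from C1d and at 28805 bp from Nkx6-1. Their units recurred at 18, 45 and 27 bp. The family 1 copy nearest to Aga, also among the 10 and outside genes, was repeated within itself too but is a copied region. The C1d array scored 596 with HFD and 1309 with SCD for BAT H3K9me2, 3157 with HFD and 2370 with SCD for BAT H3K9me3, 484 with HFD and 1614 with SCD for WAT H3K9me2, and 298 with HFD and 255 with SCD for WAT H3K9me3.

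At the other end were regions that barely met the rule in 1 list. The lowest was at Gm11562 on chromosome 11, with a score of 50.02 in the HFD list of WAT H3K9me3 and 60.96 in the SCD list. A copy of family 1 in an intron of Mapk10, which encodes the kinase JNK3, scored 98.6 with HFD and 50.04 with SCD for WAT H3K9me3. The promoter region of Htr4, a serotonin receptor gene, scored 50.03 with HFD and 64.8 with SCD for WAT H3K9me3 but 423 with HFD and 495 with SCD for BAT H3K9me3. Tcfl5, a germ cell transcription factor gene, had 50.15 in the HFD list and 321 in the SCD list of WAT H3K9me2. The region 42147 bp from Zfp640 had 79.8 with HFD and 50.25 with SCD for BAT H3K9me2.

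Regions that share sequence were grouped, joining those with at least 30% of their 36-base words in common. This gave 31 families with 540 regions (33.7% of the 1601), of which 26 families lay on a single chromosome each. Family 1 alone held 357 regions (22.3%), spread over all 19 autosomes with at most 31 on one chromosome. Its words had a median of 1809.5 copies in the genome, and in 356 of the 357 regions they recurred inside the region, most often at 212 bp. Of the family 1 regions, 87 lay within a protein-coding gene and 3 at a promoter. A reading frame of at least 1000 codons without a stop lay within or up to 7 kb from 306 of them (85.7%), with a median longest frame of 1300 codons, against 24 of the 1061 regions in no family (2.26%).

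As background, young mouse L1 retrotransposons begin with promoter units repeated head to tail and carry a long frame that encodes a reverse transcriptase. No repeat annotation was used, so the families are numbered and not named. Family 2 had 38 regions with a unit of 206 bp and 509.75 copies, and family 3 had 22 regions with a unit of 214 bp and 410.5 copies. A frame of at least 1000 codons was near 34 of the 38 and 19 of the 22. Family 4, with 21 regions, 69 copies and no inner repetition, had such a frame near 5.

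Family 1 was defined on regions of all 8 lists, so its share there follows from that choice. Regions with family 1 words were frequent in 7 lists too. Words of family 1 made up at least 30% of the words in 22.2% (20.2 to 24.3%) of the regions in 8 lists, 22.8% (21.7 to 24.0%) of those in 7 lists, 12.0% in 6 lists and 0.99% in a single list. Its median percentile was 92.1 with HFD and 90.4 with SCD for BAT H3K9me2, and 95.1 with HFD and 95.8 with SCD for BAT H3K9me3. In WAT it was 88.6 with HFD and 93.8 with SCD for H3K9me2. For WAT H3K9me3 it was 96.7 with HFD and 52.9 with SCD. Among the 4 largest families, family 2 had the highest median ranks for BAT H3K9me3, at 97.5 with HFD and 99.1 with SCD, and it showed a similar gap in WAT H3K9me3, at 98.2 with HFD and 49.98 with SCD. Reads that mapped to several sites were removed by the authors, so these ranks rest on reads that the aligner placed once.

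Outside the families, 244 regions were repeated within themselves. For 234 of them a unit of at least 12 bp could be read, with a median of 62.5 bp (quartiles 34.25 and 153 bp), and 147 had units under 100 bp. Regions repeated within themselves made up most of the remaining class. In WAT H3K9me2 the 257 regions of that class had a median percentile of 66.0 with HFD and 94.3 with SCD, against 88.0 with HFD and 93.8 with SCD in copied regions and 82.8 with HFD and 92.1 with SCD in promoter regions.

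The promoter regions touched 683 protein-coding genes, or 3.21% of 21281 on the autosomes and 4.60% of the 14836 with any merged region at a promoter. Of the 652 regions, 550 covered a start site. Their middle lay a median of 205 bp downstream of the nearest start site (quartiles 2 and 489 bp), against 118 bp (quartiles -51 and 451 bp) in promoter regions of fewer lists. In promoter regions of 7 lists it lay at 157.5 bp (quartiles 6 and 363 bp). The middle was downstream in 75.3% of the 652 and in 76.6% of those in 7 lists. Genes with a single exon made up 90 of the 683 (13.2%, 10.7 to 15.9%), against 7.28% (6.37 to 8.28%) of the 2925 genes at regions in 7 lists and 6.67% of the 14407 at regions in fewer than 8. Among all autosomal protein-coding genes the share was 12.5%.

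After Muc19 and Flg, the promoters with the highest rank in all lists were those of Tmem229a, Ahnak2, Kcnn2, Trhde, Nrg3 and Dlgap1. Kcnn2 encodes a calcium-activated potassium channel. In BAT its region scored 434 with HFD and 440 with SCD for H3K9me2, and 1583 with HFD and 1086 with SCD for H3K9me3. In WAT it scored 396 with HFD and 1006 with SCD for H3K9me2, and 264 with HFD and 196 with SCD for H3K9me3. Nrg3, a neuregulin gene, scored 210 with HFD and 488 with SCD for BAT H3K9me2 and 931 with HFD and 1067 with SCD for BAT H3K9me3. Nrg3 and Dlgap1 are best known from the nervous system.

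Gene lists were counted by symbol, against the 3.21% of all genes. Of 26 imprinted genes, which are expressed from 1 parental allele, 7 had a shared region at a promoter: Impact, Magel2, Peg12, Grb10, Peg3, Ndn and Ube3a. The Magel2 region (chr7:69521578-69525485) scored 323 with HFD and 586 with SCD for BAT H3K9me2, and 863 with HFD and 528 with SCD for BAT H3K9me3. In WAT it scored 162 with HFD and 1030 with SCD for H3K9me2, and 350 with HFD and 389 with SCD for H3K9me3. Impact scored 251 with HFD and 488 with SCD for BAT H3K9me2 and 219 with HFD and 136 with SCD for WAT H3K9me3. Magel2, Peg12, Ndn and Ube3a lie in one imprinted domain of chromosome 7, so they are not independent.

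Of the 24 clustered protocadherin symbols, adhesion proteins that label single neurons, 12 had such a region, and of 92 potassium channel genes 11 did, with Kcnn2 and Kcnk2 ranked highest. Hox genes, which set the body axis, counted 2 of 39 (Hoxd9 and Hoxd10).

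Large gene families were also counted. Zinc finger genes named Zfp counted 9 of 358, olfactory receptors 4 of 1106, vomeronasal receptors 3 of 326, and mitochondrial carriers 1 of 41 (Slc25a31). Of the genes with any merged region at a promoter, where the share was 4.60%, these were 9 of 233 (3.86%), 4 of 123 (3.25%), 3 of 26 (11.5%) and 1 of 37 (2.70%). Vmn1r2 and Vmn1r3 have the same region at their promoters, so the 3 vomeronasal genes are not independent. The keratin search found 1 of 51, annotated as Krt72-ps. Of 12 mucin genes 1 (Muc19), of 4 Fc gamma receptor genes 1 (Fcgr3) and of 12 housekeeping genes 1 (Ppia) had such a region. Replication-dependent histones counted 0 of 67 and collagens 0 of 42.

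Lists of genes of adipose function were counted in the same way. No gene had a shared region at a promoter among 20 of brown adipocytes and thermogenesis, 15 of lipogenesis, 18 of lipolysis and fatty acid oxidation, 29 of TNF and NF-kB inflammation and 20 that write, erase or read H3K9 methylation. Of 19 white adipocyte genes only Klf5, an early regulator of adipogenesis, had one, and of 68 MAPK pathway genes only Fgfr1, a growth factor receptor gene. At Klf5 the scores were 105 with HFD and 331 with SCD for BAT H3K9me2, 795 with HFD and 877 with SCD for BAT H3K9me3, 380 with HFD and 355 with SCD for WAT H3K9me2, and 213 with HFD and 73.7 with SCD for WAT H3K9me3. At a share of 3.21% all these lists but that of MAPK would hold less than 1 gene. Among cell type markers, 1 of 12 macrophage genes (Fcgr3), 1 of 10 endothelial genes (Flt1), and none of 11 skeletal muscle and 8 lymphocyte genes had a shared region. Peaks do not measure expression, so these counts say nothing of the cells present.

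The MAPK genes that the study examined had promoter regions in fewer lists. Map3k5 and Hspa1a had a peak in 7 lists, lacking only the SCD list of WAT H3K9me3. Vegfa had one in 6 lists, Ppp3cc, Dusp2 and Met in 5, and Map3k14 in 4. Map3k5, a kinase of the stress response, scored 724 with HFD and 651 with SCD for BAT H3K9me3, and 184 with HFD and 274 with SCD for WAT H3K9me2.

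At Fcgr3, an Fc receptor gene of macrophages, the shared region was 17245 bp wide and came within 2682 bp of the start site (chr1:172997748-173014992). There 84% of the words recurred inside the region. Its scores were 656 with HFD and 409 with SCD for BAT H3K9me2, 3100 with HFD and 2231 with SCD for BAT H3K9me3, 901 with HFD and 618 with SCD for WAT H3K9me2, and 1102 with HFD and 59.4 with SCD for WAT H3K9me3. It was the second widest of all. The widest, of 17719 bp, and the next widest, of 17097 bp, lay on annotated 5S ribosomal RNA genes of chromosome 8 inside the gene model Gm20388, and in the widest no base was covered by all 8 lists. Plec, a cytoskeletal linker gene, held a region of 12399 bp over its exons, which was not copied and not repeated.

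Ranks with HFD were set against ranks with SCD for each tissue and mark, as in the plot by class. A percentile depends on the length of its list, and the lists of BAT differ in length between diets. For H3K9me2 they hold 42401 autosomal peaks with HFD and 23626 with SCD. For H3K9me3 they hold 50303 with HFD and 25126 with SCD. The shares by rank in BAT are therefore not read as a direction. In BAT H3K9me2, 813 of the 1601 regions (50.8%) had a higher percentile with HFD than with SCD, against 56.7% of 13836 regions of fewer lists with a peak under both diets. In BAT H3K9me3, 1188 regions (74.2%) ranked higher with HFD, against 76.8% of 19346 such regions. Within this, 556 of 652 promoter regions (85.3%) ranked higher with HFD, but only 283 of 560 copied regions (50.5%). In the remaining class 241 of 257 (93.8%) did. The median difference of HFD minus SCD was 8.44 percentile points at promoters, 0.08 in copied regions and 15.9 in the remaining class.

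For WAT H3K9me2, 1203 of the 1601 regions ranked lower with HFD and 398 (24.9%) higher, against 54.9% higher in 9646 regions of fewer lists with a peak under both diets. The median difference was -6.65 points, and in the remaining class it was -20.1 points, with 232 of 257 regions lower. These scores also chose the regions. The lowest of the 8 percentiles lay in the HFD list of WAT H3K9me2 in 249 regions and in its SCD list in 20. No direction is therefore read from WAT H3K9me2. For WAT H3K9me3, 1321 regions (82.5%) ranked higher with HFD, against 54.2% of 2160 such regions, and among copied regions 521 of 560 (93.04%) did. The rule bears on this contrast, since every region had to reach a score of 50 in the SCD list of 7531 peaks. Peaks in the 1601 regions make up 6.11% of the HFD list and 21.9% of the SCD list of WAT H3K9me3, so no direction is read from it. The counts also depend on the scale. By the score itself, without ranking, 549 regions (34.3%) were higher with HFD for H3K9me2 of BAT and 963 (60.1%) for H3K9me3 of BAT. The same counts for WAT were 224 (13.99%) for H3K9me2 and 1377 (86.01%) for H3K9me3. Among regions of fewer lists with a peak under both diets, 45.3% were higher by score for BAT H3K9me2 and 61.7% for BAT H3K9me3. In WAT the shares of such regions were 45.1% for H3K9me2 and 61.2% for H3K9me3. Of the copied regions 191 of 560 (34.1%) had a higher score with HFD in BAT H3K9me3. No single direction held across tissues and marks. In all 4 comparisons 165 regions (10.3%) ranked higher with HFD, and 30 (1.87%) did so in none. Both counts depend on the shares in the single comparisons, WAT H3K9me3 included, so no direction is read from them. With 1 library per group, diet and library cannot be told apart.

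**Figure D4:**
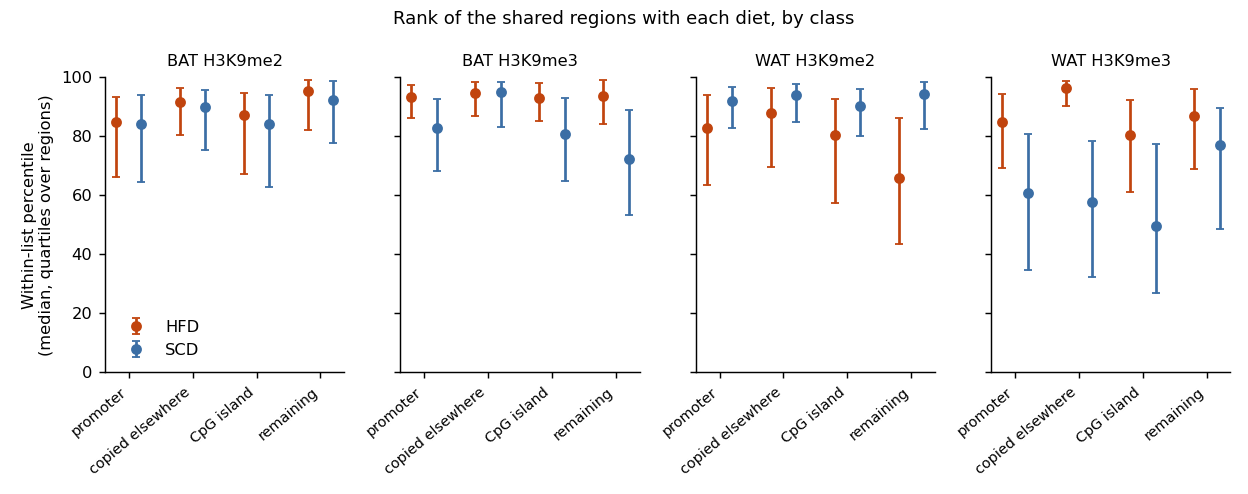
Within-list percentile of the shared regions with HFD (red) and SCD (blue) for each tissue and mark, by class (promoter, copied elsewhere, CpG island away from promoters, and remaining). Points are medians and bars are quartiles over regions. The widest gap is in WAT H3K9me3 for copied regions, with medians of 96.2 with HFD and 57.7 with SCD, and the remaining class has 66.0 with HFD and 94.3 with SCD in WAT H3K9me2.

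Single regions had much larger differences in rank than their class. In BAT H3K9me2, a copy of family 6 at 8852 bp from Ecel1 scored 292 with HFD and 53.5 with SCD, while the promoter region of Pde4d, a cAMP phosphodiesterase gene, scored 51.4 with HFD and 272 with SCD. In BAT H3K9me3, a region at Gm11735, inside the sialyltransferase gene St6galnac1, scored 697 with HFD and 51.0 with SCD. The galanin receptor gene Galr1 scored 403 with HFD and 52.2 with SCD. The 3 largest falls in that mark were all copies of family 1, the first 465224 bp from Mpdz with 79.5 with HFD and 515 with SCD.

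In WAT H3K9me2, an exonic CpG island in Adra1b, an adrenergic receptor gene, scored 215 with HFD and 63.1 with SCD, and the promoter of Rbp3, a retinal protein gene, scored 51.0 with HFD and 418 with SCD. An array in Per2, a gene of the circadian clock, scored 50.8 with HFD and 334 with SCD. In WAT H3K9me3, a family 1 copy 1370590 bp from Alcam scored 323 with HFD and 50.09 with SCD, and the promoter of Tspyl5 scored 51.6 with HFD and 136 with SCD. Except in the pairs near Mpdz and in Adra1b, the lower score of each of these pairs was under 55.

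Along the chromosomes, the share of merged regions that were in all 8 lists was largest on chromosome 12, at 121 of 4014 (3.01%, 2.51 to 3.59%), on chromosome 18, at 78 of 2686 (2.90%, 2.30 to 3.61%), and on chromosome 14, at 91 of 3680 (2.47%, 1.996 to 3.03%). Their intervals lie above the 1.85% of all regions. The intervals of chromosomes 2, 8, 11, 15 and 17 lay below it, with shares from 1.36% on chromosome 17 to 1.42% on chromosome 8. Single stretches described below hold 44 of the shared regions of chromosome 12, 20 of those of chromosome 18 and 19 of those of chromosome 14. The intervals treat regions as independent, which those of one stretch are not, so no excess over a whole chromosome is read from them. The lowest share was on chromosome 19, where the interval holds 1.85%, at 28 of 2130 (1.31%, 0.88 to 1.89%).

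**Figure D5:**
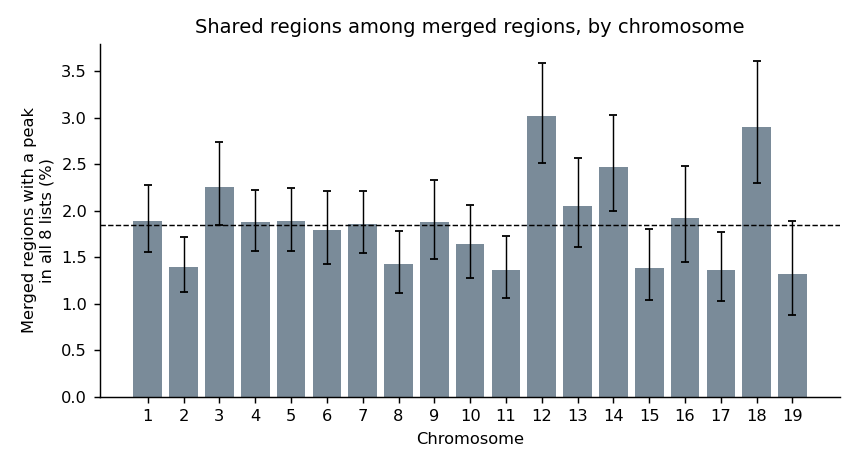
Share (%) of merged regions with a peak in all 8 lists on each autosome, with exact 95% intervals. The dashed line is the share over all autosomes, 1.85%, and the bars of chromosomes 12, 18 and 14 stand highest at 3.01%, 2.90% and 2.47%.

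Another shared region lay within 100 kb of 342 of the 1601 (21.4%, 19.4 to 23.5%). Among all merged regions within 100 kb of a shared region, 4.78% were themselves shared, against 1.38% around regions of fewer lists and 1.75% around regions in 7 lists. The share was 6.24% around promoter regions and 3.62% around copied regions. A neighbour counts once for each region it lies near, so dense groups weigh most in these shares. Shared neighbours were counted 690 times in all and 389 times around promoter regions. The largest group, of 13 regions, has 12 at promoters. Most regions stood alone, with 1259 having no other within 100 kb, and there were 106 pairs and 16 groups of 3, while the largest groups had 13, 9 and 8 regions. In 19 windows of 1 Mb there were at least 5 regions, 150 in all, of the 1051 windows with any.

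The window with most was on chromosome 11 from 99 to 100 Mb, where 20 of 82 merged regions were in all 8 lists. It holds genes of keratin-associated proteins, which form the matrix of hair. Of these 20 regions, 19 were at promoters, none held a CpG island, and the median CpG ratio was 0.15. Their median score was 652 with HFD and 369 with SCD for BAT H3K9me3, and 127 with HFD and 377 with SCD for WAT H3K9me2. Of these 20, 13 formed the largest group, over 108 kb (chr11:99633026-99741357), and 4 of these made up family 11. Genes of this cluster are near-identical in places, which removal of reads with several sites affects.

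On chromosome 18 from 37 to 38 Mb, 20 of 99 regions were shared, 16 of them at promoters and 14 with a CpG island. These are the clustered protocadherins, with 9 regions on the Pcdhb genes over 225 kb. Their median GC content was 59.25% and their median score was 510 with HFD and 298 with SCD for BAT H3K9me3, and 121 with HFD and 256.46 with SCD for WAT H3K9me2.

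The next window was on chromosome 12 from 19 to 20 Mb, with 11 of 83 regions, and it is part of a longer stretch. From 18 to 25 Mb, 44 of 403 regions (10.9%) were shared, 41 of them with a CpG island, 37 copied and 12 at promoters. They had a median GC content of 69.15% and a CpG ratio of 0.83, and 3 of the 10 regions with the highest lowest percentile lay here. Their median percentile was 94.5 with HFD and 96.3 with SCD for BAT H3K9me2, 98.4 with HFD and 97.9 with SCD for BAT H3K9me3, 98.3 with HFD and 97.4 with SCD for WAT H3K9me2, and 97.7 with HFD and 83.3 with SCD for WAT H3K9me3. The region nearest to Gm5784 (chr12:19293797-19295636), the sequence of which opens the second group above, scored 265 with HFD and 385 with SCD for BAT H3K9me2, 1079 with HFD and 1255 with SCD for BAT H3K9me3, 428 with HFD and 382 with SCD for WAT H3K9me2, and 479 with HFD and 313 with SCD for WAT H3K9me3.

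Other groups, chosen after their values were seen, were smaller. On chromosome 14 from 3 to 9 Mb, 19 of 255 regions were shared, all 19 copied and 15 of them in family 5. Near Rex2, Zfp600 and other genes of chromosome 4, 18 of 356 regions of a 3 Mb stretch were shared, 16 of them copied. Among the genes of major urinary proteins on chromosome 4 from 60 to 62 Mb, 8 of 139 were shared, all 8 copied. Near Slc19a3 and Agfg1 on chromosome 1, 8 of 16 regions were shared within 149 kb, none at a promoter and none with a CpG island. The 4 regions over the 5S ribosomal RNA genes had a median width of 13636.5 bp and a median percentile of 99.9 with HFD and 98.8 with SCD for BAT H3K9me2, and of 99.97 with HFD and 61.98 with SCD for WAT H3K9me3. Near Nkx2-1, Nkx2-9 and Pax9, homeobox and paired-box genes of embryonic organs, 4 regions lay within 168 kb of chromosome 12, 3 of them at promoters.

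An annotated pseudogene overlapped 45 regions (2.81%), against 1.00% of regions in fewer lists, and 8 regions (0.4997%) lay within 10 kb of an assembly gap of at least 100 bp, against 0.379%.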

How the data were processed

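Reads were inspected (FastQC) and adaptor-trimmed (Trim Galore) by the authors, per the study's methods and the submitters' processing notes. Alignment was to the mm9 assembly (Bowtie2 2.4.2), reads with more than 1 mapping site were discarded, and MACS2 was the peak caller. They deposited 1 BED list per immunoprecipitated library, and the deposited score of each peak was used. The 12 libraries comprise 8 immunoprecipitations and 4 inputs, and the inputs were not analysed here. Read depth is not given in the lists, so the number of peaks in a list cannot be separated from its depth.

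Peaks with a score of at least 50 on the 19 autosomes were merged when they shared at least 1 bp. Promoters are 3 kb on either side of any start site of a protein-coding gene (GENCODE vM1 on NCBIM37). GC content and CpG ratio were taken in the central 1000 bp, and a CpG island is a 500 bp window there with a GC content of at least 55% and a ratio of at least 0.65. Words of 36 bases were counted on both strands of the whole genome. Intervals are exact (Clopper-Pearson, 95%) and cover counting error only. Merging was checked with bedtools 2.31.1 and on simulated peaks, with Python 3.11.15, NumPy 2.4.6 and SciPy 1.17.1. The regions, gene lists and families were chosen with earlier results of these data known. The results of 2 gene lists are not reported here.

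Regions named in the text are the 10 with the highest and the 5 with the lowest value of their lowest percentile, the 5 widest, the 5 with the longest stretch covered in all lists, the 3 windows of 1 Mb with most regions, and some of those with the largest differences between diets. Those of highest rank in each class and the other places were added after seeing the data. Alternatives were another score limit, all deposited peaks, equal numbers of peaks, merging within 1 kb, each list left out, other promoter definitions, width quartiles, other neighbour distances and copied regions left out.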

Additional observations from a re-analysis of the deposited data

Results flagged for a closer look

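Chromosomes outside the autosomes were not part of the comparison, and they held such regions too. On chromosome X, 33 of 2773 merged regions had a peak in all 8 lists (1.19%, exact 95% interval 0.821 to 1.67%), and on contigs without a place in the assembly 18 of 1993 did (0.903%, 0.536 to 1.42%). On chromosome Y there were 0 of 68, which allows a share of up to 5.28%.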

How the results depend on the processing

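Of 79 values under alternatives, 47 stayed close to the value reported and the 32 others are given here, those with 1 list left out as ranges. The number of regions was 1601, and it was 504 with a score of at least 80, 2745 with all deposited peaks, 588 with an equal number of peaks from each list, 569 without regions holding any copied 36-base word and 1003 without regions copied in at least 50% of their words, an alternative chosen after seeing the data. Leaving out 1 list gave 1603 to 6260 regions, and the 6260 came without the SCD list of WAT H3K9me3. The share at promoters, 40.7%, was 30.1% with equal numbers of peaks, 36.7% with promoters of 1 kb, 36.04% with 1 start site per gene, 20% in width quartile 2 and 37.3% in width quartile 3 of all merged regions, 61.2% without copied regions and 37.6 to 50.2% with 1 list left out. The lowest width quartile held no such region. The share with a CpG island, 58.8%, was 62.8% with all deposited peaks, 53.1% with merging within 1 kb, 65.3% without copied regions and 53.4 to 71.9% with 1 list left out. The share with another region within 100 kb, 21.4%, was 15.3% with a score of at least 80, 27.7% with all deposited peaks, 9.69% with equal numbers and 21.5 to 43.3% with 1 list left out, and it was 5.43% within 10 kb and 75.5% within 1 Mb. The median width, 1527 bp, was 1683.5 bp with a score of at least 80, 1788.5 bp with equal numbers, 1686 bp with merging within 1 kb and 1452 to 1516 bp with 1 list left out. The cause of these changes was not tested. No paired analysis was possible because every group consists of a single library and the labels give no replicate number.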
